A study of Mus musculus with 2 samples.

Results

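The genes described here encode the machinery that moves newly made proteins between the endoplasmic reticulum (ER) and the Golgi apparatus. The 40 genes were taken by symbol from the 32285 genes of both count matrices, and all 40 were found. They comprise 12 genes of the COPII coat and its GTPase cycle, 4 cargo receptors, 6 members of the p24 family, 3 KDEL receptors, 10 genes of the COPI coat and its GTPase cycle, and 5 genes for SNAREs and a tether. The rule for the list names functions and uses no measured level, but earlier results of these data were known when it was made.

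COPII coats bud carriers from ER exit sites. The GTPase SAR1 recruits an inner layer of SEC23 and SEC24, of which SEC24 binds cargo, and an outer cage of SEC13 and SEC31. Transmembrane receptors such as LMAN1, SURF4 and the p24 proteins link cargo inside the ER to the coat. COPI coats, recruited by ARF GTPases, return escaped ER proteins and recycled receptors from the Golgi, and the KDEL receptors retrieve ER chaperones by that route. SNAREs and the tether USO1 (p115) dock and fuse the carriers. High endothelial cells line the venules through which lymphocytes enter lymph nodes, and they secrete and display heavily glycosylated mucin-like ligands for L-selectin. XBP1, the transcription factor of the IRE1 branch of the unfolded protein response, is known to act on many secretory pathway genes in professional secretory cells.

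Single-cell RNA was read from endothelial cells of mouse lymph nodes, sorted after bead depletion of CD45-positive cells. Each of 2 libraries mixed 4 pools marked by hashtag antibodies, namely WT peripheral nodes (HT4), WT mesenteric nodes (HT5), Xbp1-KO peripheral nodes (HT6) and Xbp1-KO mesenteric nodes (HT7), and mice of both genotypes had received tamoxifen. The labels do not name the Cre line, the cells in which it acts, the part of Xbp1 that was removed, the age or sex of the mice, or how many mice went into a pool. A replicate is therefore 1 pool in 1 library, with 2 per genotype and tissue, and the p-values given here measure the spread between such pools, which may be technical. The labels do not say whether the peripheral and mesenteric pools of 1 genotype and library came from the same mice. If they did, the 4 pools of a genotype stand for 2 sets of mice, and an SD with n = 4 or a p over both tissues takes them as more independent than they are.

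The libraries held 7709 and 2903 cell barcodes with 33024170 and 14744778 unique molecular identifiers (UMIs, 1 per captured RNA molecule), and 3 barcodes occurred in both. After the removal of cells with more than 1 hashtag or none, of called doublets and of low-quality cells, 9275 cells remained. Clustering was done without the 40 genes. It gave 513 cells that are called high endothelial-like from their marker genes, 3673 other blood endothelial cells (capillary-, arterial-, tip- and venous-like) and 3701 lymphatic endothelial cells. A cluster of 1130 cells led by Col13a1 and Hbegf failed the marker rule, stayed unnamed and was kept out of the classes. UMIs were summed per pool, library and class. The high endothelial-like sums were the smallest, with 13 to 130 cells and 84692 to 1111820 UMIs each, against 154 to 965 cells and 479325 to 2611579 UMIs in the other blood endothelial cells and 64 to 1294 cells and 421632 to 6548025 UMIs in the lymphatic cells. The peripheral high endothelial-like sums held 32 and 14 cells in the WT pools and 62 and 13 in the Xbp1-KO pools of libraries 1 and 2, and the mesenteric ones 113 and 56, and 130 and 93. Levels below are CPM, UMI counts scaled to a common total, scaled by edgeR's TMM factors, which correct for the share of UMIs that a few genes take up. For each gene the 4 pools of a genotype are given in the order peripheral library 1, peripheral library 2, mesenteric library 1 and mesenteric library 2. Since the assay reads 3′ ends, levels are compared between samples for 1 gene and not between genes.

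The classes were named from marker genes, so the levels of those markers describe the classes and do not test them. The 7 high endothelial markers, among them Glycam1, Chst4 and Fut7, summed to 11946 to 181408 CPM in the WT and 14117 to 232360 CPM in the Xbp1-KO high endothelial-like sums, and to 579 to 1486 CPM in the other blood endothelial sums. In the high endothelial-like sums the 7 lymphatic markers totalled at most 99.8 CPM, the 8 leukocyte markers at most 67, the 6 plasma cell markers at most 26.8 and the 8 stromal markers at most 21.9, and all 5 mesothelial markers were at 0. Within 1 library genotype and sex cannot be told apart, because the male transcript Ddx3y marked the WT pools of library 1 and the Xbp1-KO pools of library 2, and Xist marked the others. The lowest sums of the high endothelial markers came from the peripheral WT pool of library 1 and the peripheral Xbp1-KO pool of library 2, which are both Ddx3y pools, and the part of this in the values of the 40 genes was not tested.

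Xbp1 itself was the check of the labels. In the high endothelial-like cells the WT pools had 368, 339, 590.1 and 493 CPM and the Xbp1-KO pools 295, 183, 303 and 358 CPM. The values were 168, 169.9, 199.8 and 227 CPM (WT) against 81.8, 113, 112 and 129 CPM (Xbp1-KO) in other blood endothelial cells. They were 106, 89, 99.1 and 51.6 CPM against 40.3, 44.4, 48.5 and 46.7 CPM in lymphatic cells. Each Xbp1-KO pool was below its WT counterpart in all 3 classes, and the groups overlapped only in the high endothelial-like cells. The log2 fold changes over both tissues were -0.61 ± 0.23 (SE), -0.81 ± 0.15 and -1.04 ± 0.16. They did not pass edgeR's quasi-likelihood test with Benjamini-Hochberg adjustment (adjusted p = 0.999, 0.47 and 0.15), and with the library as a block the last 2 did (adjusted p = 0.00082 and 0.00083). A 3′ read may lie outside the removed part of the gene, so residual Xbp1 UMIs do not measure how much of the gene was left intact. Among WT pools Xbp1 was itself higher in high endothelial-like than in other blood endothelial cells, by 1.26 ± 0.14 on the log2 scale. Of the related factors, Creb3l1 was at 0 to 1.45 CPM in high endothelial-like sums, and Creb3l2 was at 113 ± 24.4 CPM (WT) against 91.9 ± 32 CPM (Xbp1-KO) (mean ± SD, n = 4).

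Promoter sequence is shown first because letters known from ER stress and cAMP-type response elements recur among the genes whose levels follow. RefSeq windows from 250 bases before to 50 bases after a RefSeq transcript start (GRCm38.p6) were at hand for 35 of the 40 genes, and Lman1, Tmed2, Tmed7, Kdelr2 and Arcn1 had none. For 31 of the 35 a window's start lay within 250 bases of the outermost GENCODE M21 start of the gene, and for Surf4, Sec24b, Sec24a and Tmed9 it lay 417, 646, 6800 and 19403 bases further in. The letters GCCACGT, searched on both strands, occurred in 14 of the 35 windows (40%), against 798 of all 27025 genes with a window (2.95%), 396 of 8454 genes tested in lymphatic cells (4.68%) and 10 of 47 other ER-Golgi traffic genes (21.3%). The letters TGACGTGG occurred in 7 of 35 (20%), against 0.714%, 1.09% and 6.38%, and the ER stress element CCAAT, 9 bases, CCACG in 0 of 35 (0.137% of all genes). The first 2 searches overlap, since both hold CCACGT on 1 strand. The stretches below run from 100 bases before to 20 bases after the start, except that of Tmed3, which is the first 120 bases of its window. Capitals mark the matches.
Sec23a: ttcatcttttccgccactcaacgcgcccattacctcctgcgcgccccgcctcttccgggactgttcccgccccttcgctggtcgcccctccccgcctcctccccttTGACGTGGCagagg
Sec24d: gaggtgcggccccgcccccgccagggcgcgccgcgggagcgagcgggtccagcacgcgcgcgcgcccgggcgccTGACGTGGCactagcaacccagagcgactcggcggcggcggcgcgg
Sec31a: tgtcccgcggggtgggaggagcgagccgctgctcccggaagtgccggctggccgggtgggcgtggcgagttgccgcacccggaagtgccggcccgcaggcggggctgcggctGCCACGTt
Tmed3: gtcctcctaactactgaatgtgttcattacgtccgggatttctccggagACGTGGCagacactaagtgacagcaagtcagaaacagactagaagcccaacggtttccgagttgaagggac
Tmed5: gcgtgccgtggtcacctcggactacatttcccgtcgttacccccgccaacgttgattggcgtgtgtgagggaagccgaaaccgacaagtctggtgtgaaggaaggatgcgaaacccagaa
Copb2: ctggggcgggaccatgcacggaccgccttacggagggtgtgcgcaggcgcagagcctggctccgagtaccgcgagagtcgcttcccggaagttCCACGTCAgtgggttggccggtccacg
Copg1: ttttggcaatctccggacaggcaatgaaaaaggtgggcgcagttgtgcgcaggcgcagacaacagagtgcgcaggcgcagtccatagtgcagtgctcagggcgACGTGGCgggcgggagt
Uso1: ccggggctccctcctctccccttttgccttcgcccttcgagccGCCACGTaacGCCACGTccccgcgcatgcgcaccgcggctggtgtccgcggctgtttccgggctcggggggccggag
These lie at chr12:59011998-59012117 (minus strand), chr3:123267396-123267515 (plus strand), chr5:100416215-100416334 (minus strand), chr9:89705174-89705293 (minus strand), chr5:108132601-108132720 (minus strand), chr9:98563631-98563750 (plus strand), chr6:87887840-87887959 (plus strand) and chr5:92137838-92137957 (plus strand). Uso1 has 2 copies of GCCACGT in its stretch. Tmed3 has 2 copies in its window, and the copy 30 bases after the start lies outside the stretch shown. Tmed5, the 1 gene of the list called lower in WT high endothelial-like cells under TMM scaling, has neither run of letters in its window. Without TMM Sec24b and Arf1 were called lower too, and Arf1 holds both runs while Sec24b holds neither. By their GENCODE starts Sec24a and Sar1b lie head to head with 52 bases between them, which the RefSeq window of Sec24a does not cover. A match is a description of letters, not a binding site. Among WT pools the 13 tested genes with GCCACGT had a median log2 fold change of 0.52 between high endothelial-like and other blood endothelial cells and 5 were called higher, and the 21 without it had a median of 0.47 with 8 called higher and 1 lower. For lymphatic against other blood endothelial cells 5 of the 13 were called higher and 1 lower, and 2 of the 21 higher. In Xbp1-KO pools 1 of the 13 was higher in high endothelial-like cells, and 3 of the 21 higher and 1 lower. In Xbp1-KO lymphatic cells 4 of the 13 were higher, and 4 of the 21 higher and 3 lower. The 2 sets were not tested against each other.

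The first comparison asked which of the genes high endothelial-like cells hold at another level than the other blood endothelial cells of the same nodes. In WT mice 13 of the 39 genes that could be tested were higher and Tmed5 was lower, at an adjusted p under 0.05 in edgeR's quasi-likelihood test with the pool as a block (4 pools in each class). They are 33.3% and 2.56% of those tested, against a background of 12.5% of 7074 genes called higher and 13.3% called lower (25.8% in all). The median log2 fold change of the 39 genes was 0.47, against -0.02 over all genes, and 35 of the 39 lay above 0 (26 without TMM). Kdelr3 had too few UMIs for the filter. By role, 4 of 12 COPII genes were called higher (median 0.49), 1 of 4 cargo receptors (0.23), 1 of 6 p24 genes with 1 lower (0.33), 0 of 2 KDEL receptors (0.39), 4 of 10 COPI genes (0.47) and 3 of 5 SNARE and tether genes (0.65). Of the 55 further ER-Golgi traffic genes counted as a comparison list, 47 were tested, 6 were higher and 1 was lower, with a median of 0.14.

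The size of this difference rests on how the sums are scaled. The 10 most abundant genes took 14% to 25.7% of the UMIs in the WT high endothelial-like sums and 10.6% to 11% in the WT other blood endothelial sums, and the TMM factors were 0.827 to 0.89 and 1.03 to 1.09. Scaling by the UMI total alone moved the median of all genes by 0.35, to -0.37, and that of the 39 genes to 0.12. Since such a change of scale moves all genes alike, the distance of 0.49 between the 2 medians was the same in both. Without TMM 1 gene was called higher and 3 lower (Sec24b, Tmed5 and Arf1), beside 6.50% of all genes higher and 28% lower. None of the 14 called genes changed sign, and the 13 called higher then lay between 0.15 and 1.95. DESeq2 called 3 higher (Tmed3, Copa and Cope) and Tmed5 lower. In library 2 alone 2 genes were called (Gosr2 and Tmed3), in library 1 alone 3 (Copa, Cope and Tmed3), so Tmed3 was the 1 call kept in each library. UMIs per cell were 3723 to 11227 in the high endothelial-like and 2669 to 3333 in the other blood endothelial sums of WT pools, and the 14 dissociation-response genes summed to 8739 to 14473 CPM and to 16184 to 21431 CPM there. The part of depth and of dissociation in the differences was not tested, except that sums thinned to the smallest gave 2 calls.

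**Figure D1:**
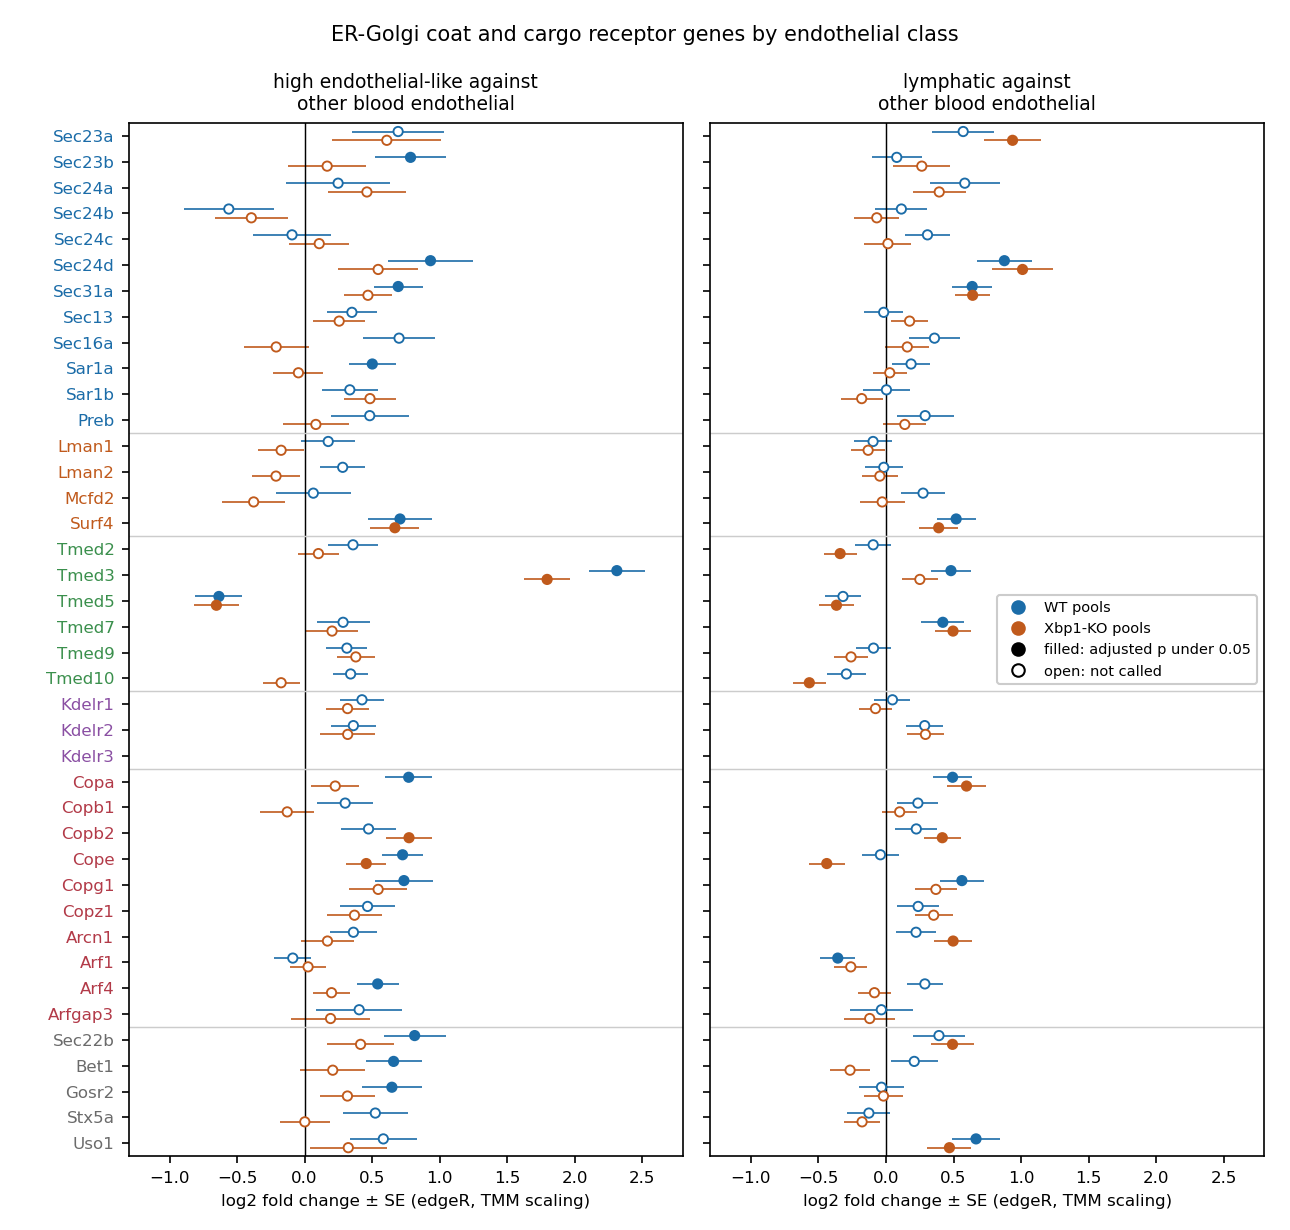
Log2 fold changes (± SE, edgeR with TMM scaling) of the 39 tested genes, ordered and coloured by role, for high endothelial-like (left) and lymphatic (right) against other blood endothelial cells, with WT pools in blue and Xbp1-KO pools in orange and filled points for adjusted p under 0.05; Kdelr3 was not tested. Tmed3 lies apart from the rest on the left at 2.31 and 1.80, and scaling by UMI totals without TMM would move the left points by about 0.35 and 0.33 to the left and the right points by 0.16 and 0.20 to the right.

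Among COPII genes the cargo-binding subunit Sec24d, the cage subunit Sec31a, the inner coat subunit Sec23b and the GTPase Sar1a were higher in WT high endothelial-like cells. Sec24d stood at 37.7, 43.7, 27.5 and 26.5 CPM there and at 14, 15.3, 18.6 and 12.2 CPM in other blood endothelial cells. Every high endothelial-like pool lay above every other pool, and the log2 fold change was 0.93 ± 0.32 (SE; edgeR, adjusted p = 0.04). The high endothelial-like values come from 4, 4, 19 and 14 UMIs. Sec31a stood at 75.4, 76.5, 107 and 108 CPM against 63.2, 55.4, 66.4 and 58 CPM, again without overlap, with the 2 mesenteric pools highest (0.69 ± 0.18; edgeR, adjusted p = 0.0092). Sec23b was uneven, at 37.7, 10.9, 53.5 and 39.7 CPM against 34.4, 21, 27 and 20.3 CPM. It was higher in 3 of 4 pools, the exception being the peripheral pool of library 2, and the groups overlapped (0.78 ± 0.26; edgeR, adjusted p = 0.039). Sar1a, at 141, 120.2, 127 and 98.3 CPM against 89.2, 97.4, 77.3 and 88.5 CPM, was higher in 4 of 4 pools without overlap (0.50 ± 0.17; edgeR, adjusted p = 0.042).

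The paralogues of these genes did not move together past the threshold. Of the 4 Sec24 genes, whose products prefer different cargo, Sec24a had a log2 fold change of 0.25 ± 0.39, Sec24b of -0.56 ± 0.33 and Sec24c of -0.09 ± 0.29, none of them called. Sec24c was the most uneven, at 28.3, 76.5, 36.2 and 18.9 CPM in the WT high endothelial-like pools, and its highest pool held 14 cells. Sec23a, the partner of Sec23b, was listed at 28.3, 0, 24.6 and 28.4 CPM against 16.8, 7.64, 15 and 16.3 CPM (0.69 ± 0.34, not called), and Sar1b, the partner of Sar1a, at 28.3, 76.5, 56.4 and 75.6 CPM against 41.4, 70.7, 37.9 and 62 CPM (0.33 ± 0.21, not called). Sec13, shared by the COPII cage and the nuclear pore, the exit-site scaffold Sec16a and the SAR1 exchange factor Preb had 0.35 ± 0.19, 0.70 ± 0.27 and 0.48 ± 0.29 without passing the test.

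Surf4, a receptor for soluble cargo, was the called member of the cargo receptors. It stood at 56.6, 32.8, 142 and 117 CPM in WT high endothelial-like cells and at 86.3, 63, 65.3 and 62 CPM in other blood endothelial cells. The 2 mesenteric pools were above and the 2 peripheral pools below their counterparts, so the call (0.71 ± 0.24; edgeR, adjusted p = 0.039) describes 2 of 4 pools. The lectin Lman1 (ERGIC-53), its partner Mcfd2 and the lectin Lman2 (VIP36) had 0.17 ± 0.20, 0.06 ± 0.28 and 0.28 ± 0.16 and were not called.

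The p24 family, whose members form hetero-oligomers that cycle between ER and Golgi, held both the highest and the lowest fold change. Tmed3 stood at 104, 361, 282 and 529 CPM in WT high endothelial-like cells and at 52.6, 76.4, 54 and 78.3 CPM in other blood endothelial cells. All 4 pools were higher without overlap, but the 4 values themselves spread widely, lowest in the peripheral pool of library 1. The log2 fold change was 2.31 ± 0.20 (edgeR, adjusted p = 4.5e-07), 1.95 without TMM, 2.58 in library 2 alone and 1.95 in library 1 alone. Tmed5 went the other way, at 104, 54.6, 106 and 109.6 CPM against 169.9, 158, 154 and 158 CPM, lower in 4 of 4 pools without overlap (-0.63 ± 0.17; edgeR, adjusted p = 0.012). Tmed2, Tmed7, Tmed9 and Tmed10 had 0.36 ± 0.19, 0.28 ± 0.20, 0.31 ± 0.15 and 0.34 ± 0.13 and were not called. Tmed10 was even among the WT high endothelial-like pools, at 358, 372, 369 and 346 CPM.

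The KDEL receptors Kdelr1 and Kdelr2 had 0.42 ± 0.16 and 0.36 ± 0.17 and did not pass the test. Kdelr3 had few UMIs. Over all 8 sums it had 39 UMIs in the high endothelial-like sums, 11 in those of the remaining blood endothelium and 73 in lymphatic ones, and its WT levels were 0, 10.9, 13 and 18.9 CPM, 0.702, 0, 0.729 and 1.02 CPM and 2.43, 3.61, 3.53 and 6.45 CPM. The high endothelial-like peripheral pool of library 1, with 119141 UMIs in all, held none.

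In the COPI group the coat subunits Copa, Cope and Copg1 and the GTPase Arf4 were higher. Copa, the alpha subunit that binds retrieval signals, stood at 160.3, 109, 119 and 113 CPM in WT high endothelial-like cells against 68.1, 82.1, 73.3 and 69.2 CPM. Its groups did not overlap (0.77 ± 0.17; edgeR, adjusted p = 0.0031). Cope, the epsilon subunit, stood at 207, 175, 224 and 161 CPM against 117, 93.6, 131 and 115 CPM, also without overlap (0.73 ± 0.15; edgeR, adjusted p = 0.0018). Copg1, a gamma subunit, stood at 56.6, 32.8, 79.5 and 56.7 CPM against 37.9, 42, 43.4 and 32.5 CPM and was higher in 3 of 4 pools, the peripheral pool of library 2 being lower (0.74 ± 0.21; edgeR, adjusted p = 0.017). Arf4 followed library as well as class, at 160.3, 229, 179 and 265 CPM against 135, 202, 123 and 152 CPM, and was higher in each of the 4 pairs while the groups overlapped (0.54 ± 0.16; edgeR, adjusted p = 0.016).

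The other COPI genes were not called in WT cells. The coat subunits Copb1, Copb2, Copz1 and Arcn1 (delta) had 0.30 ± 0.21, 0.47 ± 0.20, 0.47 ± 0.20 and 0.36 ± 0.18. Arf1, the GTPase that recruits the coat, had -0.09 ± 0.14, and Arfgap3, which ends its cycle, had 0.40 ± 0.32.

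Of the fusion genes, the SNAREs Sec22b, Bet1 and Gosr2 were called. Sec22b stood at 28.3, 21.9, 63.6 and 75.6 CPM in WT high endothelial-like cells against 30.9, 24.8, 34.3 and 36.6 CPM. Both mesenteric pools were higher and both peripheral pools slightly lower than their counterparts (0.81 ± 0.23; edgeR, adjusted p = 0.014). Bet1 stood at 28.3, 43.7, 69.4 and 71.8 CPM against 27.4, 36.3, 40.1 and 45.8 CPM and was higher in 4 of 4 pairs with overlapping groups (0.66 ± 0.21; edgeR, adjusted p = 0.027). Gosr2 (membrin) stood at 47.1, 87.4, 66.5 and 64.3 CPM against 52.6, 45.8, 47.8 and 29.5 CPM, higher in 3 of 4 pairs (0.65 ± 0.22; edgeR, adjusted p = 0.043). Its fold change was 1.08 in library 2 alone and 0.32 in library 1 alone. Stx5a and the tether Uso1 had 0.52 ± 0.24 and 0.58 ± 0.25 and were not called.

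In Xbp1-KO mice the same comparison of classes called 4 of 39 genes higher and 1 lower, 10.3% and 2.56%, beside 13.5% and 15.6% of 7984 genes (29.1% in all). Tmed3, at 198, 159, 281 and 213 CPM against 56.3, 74.2, 56.8 and 66.6 CPM, was higher in each pool without overlap (1.80 ± 0.17; edgeR, adjusted p = 4.7e-08). Copb2, the beta′ subunit, stood at 112, 109.8, 84.1 and 84.5 CPM against 58.9, 63.6, 46.3 and 53.6 CPM, and its groups did not overlap either (0.77 ± 0.17; edgeR, adjusted p = 0.0015). Surf4, at 122, 61, 101 and 111 CPM against 73.9, 65.7, 74.3 and 52.1 CPM, was higher in 3 of 4 pairs (0.67 ± 0.18; edgeR, adjusted p = 0.0073). Cope stood at 140.4, 159, 188 and 164 CPM against 123, 124, 124 and 107 CPM without overlap (0.46 ± 0.15; edgeR, adjusted p = 0.025). Tmed5 was again lower in every pool, at 133, 109.8, 87.7 and 107 CPM against 139, 153, 167 and 186 CPM (-0.65 ± 0.17; edgeR, adjusted p = 0.0047).

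Surf4, Tmed3, Tmed5 and Cope were called in both genotypes, which is 28.6% of the 14 WT calls and 80% of the 5 Xbp1-KO calls. Of all genes called, 82.4% of the WT and 64.8% of the Xbp1-KO calls were shared. The median of the 39 genes in Xbp1-KO mice was 0.21, against -0.05 over all genes, and 30 lay above 0 (13 without TMM). Without TMM the median of the 39 was -0.11 and that of all genes -0.38, with Tmed3 called higher and 6 genes lower (Sec24b, Tmed5, Tmed10, Lman2, Mcfd2 and Lman1), beside 6.26% and 29.4% of all genes. In library 2 alone Tmed3 was the 1 of these 5 calls that held, and in library 1 alone Tmed3 and Copb2 held. One Xbp1-KO other blood endothelial sum had 2751 CPM of platelet and red cell genes, and dissociation-response genes summed to as much as 50097 CPM there, against at most 20103 CPM in the high endothelial-like sums. Their part in the result was not tested. The difference between the genotypes in these class comparisons is given further on as its own test, and edgeR called none of the 39 genes there.

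**Figure D2:**
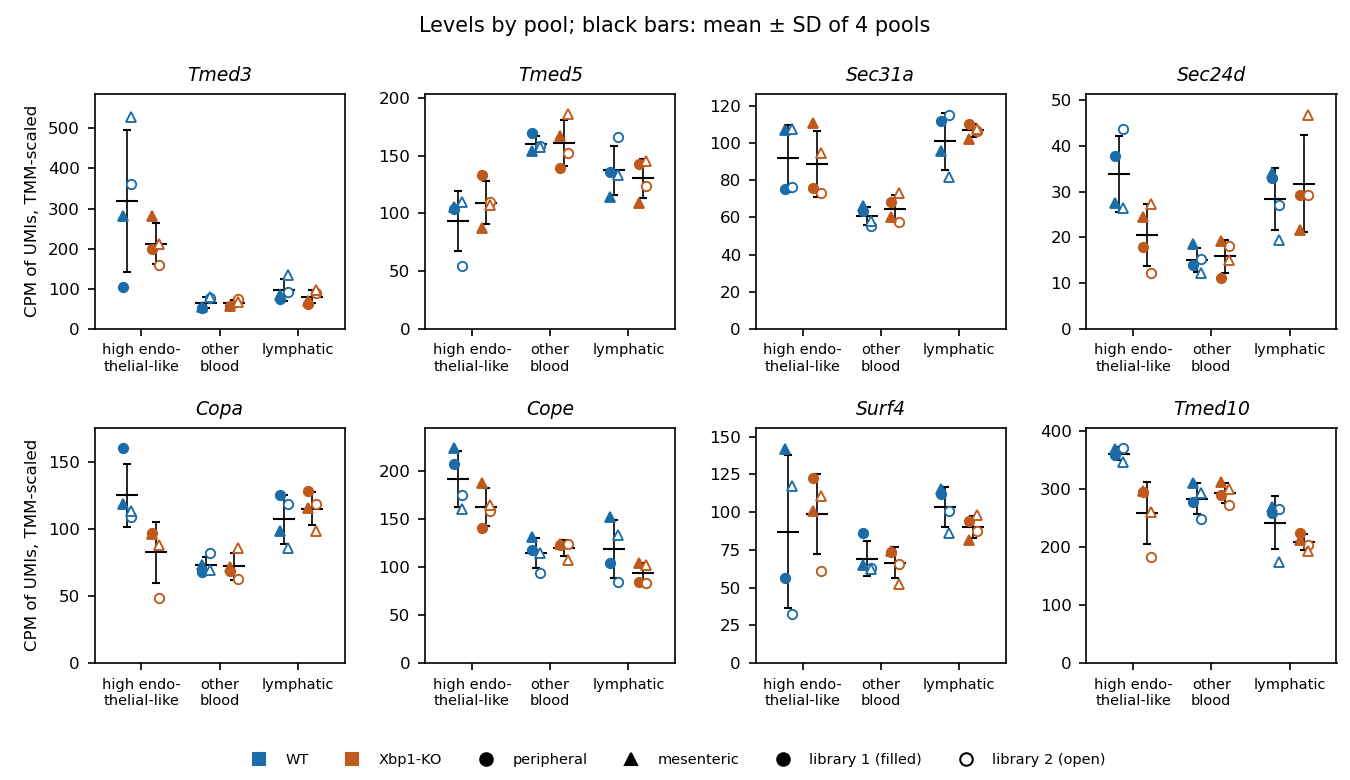
TMM-scaled CPM of 8 genes in each pool (circles peripheral, triangles mesenteric; filled library 1, open library 2; blue WT, orange Xbp1-KO) for the 3 classes, with black bars for mean ± SD of 4 pools. All Tmed3 values of high endothelial-like pools lie above all other blood endothelial values, Tmed5 values lie below them, and the 4 WT Tmed10 values of high endothelial-like pools lie above the 4 Xbp1-KO values.

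Lymphatic endothelial cells were compared with the same other blood endothelial sums, so this comparison shares its reference with the one above. In WT mice 8 of 39 genes were higher and 1 lower (20.5% and 2.56%), beside 20.7% and 19.8% of 9559 genes (40.5% in all), and the median was 0.22 against -0.01 over all genes. The share called higher was thus near the background. The genes called were Sec24d (33.1, 27.1, 34.1 and 19.3 CPM in lymphatic cells; 0.88 ± 0.20, adjusted p = 0.0012 in edgeR), Sec31a (112, 115, 95.6 and 81.7 CPM; 0.64 ± 0.15, adjusted p = 0.0012) and Surf4 (112, 101, 115 and 86 CPM; 0.52 ± 0.14, adjusted p = 0.0056). Sec24d and Sec31a did not overlap with the other blood endothelial values given above, and Surf4 was higher in 4 of 4 pairs.

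The tether Uso1 stood at 52.3, 52.3, 47.8 and 36.5 CPM in WT lymphatic cells against 23.9, 34.4, 31 and 27.5 CPM in other blood endothelial cells, without overlap (0.67 ± 0.18, adjusted p = 0.0037 in edgeR). Copa, at 126, 119, 98.7 and 86 CPM, and Copg1, at 65.4, 62.5, 57.2 and 62.3 CPM, were higher in every pool than in the other blood endothelial cells (0.49 ± 0.15, adjusted p = 0.0086, and 0.56 ± 0.16, adjusted p = 0.0071, in edgeR). Among p24 genes Tmed3 (73.6, 91.4, 84.2 and 135 CPM; 0.48 ± 0.15, adjusted p = 0.01 in edgeR) and Tmed7 (78.1, 74.6, 65 and 77.4 CPM against 40.7, 66.8, 47 and 66.1 CPM; 0.42 ± 0.16, adjusted p = 0.038) were higher with overlapping groups. Tmed7 had 0.15 in library 2 alone. Arf1 was lower in 4 of 4 pairs, at 222, 268, 210.4 and 224 CPM against 248, 342, 239 and 316 CPM (-0.36 ± 0.13, adjusted p = 0.031 in edgeR), and lost its call without TMM (-0.21). Scaling without TMM moved the median of all genes by 0.16 and called 18 of the 39 genes higher and 0 lower, beside 27% and 14.6% of all genes. Sec31a alone kept its call in library 2 alone, and in library 1 alone all 8 genes called higher kept theirs. The WT lymphatic sums held 4956 to 6588 UMIs per cell and 12265 to 21268 CPM of the dissociation-response genes. The part of both was not tested, except that thinned sums gave 5 calls.

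In Xbp1-KO mice 10 genes were higher and 4 lower in lymphatic than in other blood endothelial cells (25.6% and 10.3%), beside 23.2% and 22.3% of 9808 genes (45.4% in all), with a median of 0.10 against 0.00. The COPII genes Sec24d, Sec23a and Sec31a were higher by 1.01 ± 0.23, 0.94 ± 0.21 and 0.64 ± 0.13 (edgeR, adjusted p = 0.0016, 0.0017 and 0.00062). Sec23a stood at 26.9, 33, 21.7 and 32.6 CPM against 9.16, 24.4, 10.5 and 15.5 CPM and Sec31a at 110.4, 107, 102 and 108 CPM against 68, 57.3, 60.3 and 73.1 CPM. Sec31a did not overlap and Sec23a did. Both were called in each library alone, which held for no other of the 14 genes. Copa, Arcn1, Copb2, Tmed7, Sec22b, Uso1 and Surf4 were higher by 0.60 ± 0.14, 0.50 ± 0.14, 0.42 ± 0.14, 0.50 ± 0.13, 0.49 ± 0.16, 0.47 ± 0.16 and 0.39 ± 0.14, with edgeR adjusted p from 0.0029 to 0.037. Surf4 had 0.64 in library 2 alone and 0.18 in library 1 alone.

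In the Xbp1-KO lymphatic pools Sec24d had 29.2, 29.2, 21.7 and 46.7 CPM against 11.1, 18, 19.2 and 15 CPM in other blood endothelial cells, without overlap. Copa had 129, 119, 116 and 98.9 CPM against 68.7, 62.6, 71.6 and 85.6 CPM and Copb2 73.6, 77, 79.5 and 84.2 CPM against 58.9, 63.6, 46.3 and 53.6 CPM, and neither overlapped. The delta subunit Arcn1 had 85.4, 84.7, 86.7 and 94.5 CPM against 53.6, 52, 79.5 and 56.6 CPM. The mesenteric pool of library 1 stood out among the 4 by its small difference. Tmed7 had 74.4, 77.5, 73.3 and 81.5 CPM against 45.8, 59.4, 46.3 and 56.1 CPM, Sec22b 52.3, 58.4, 43.4 and 53.8 CPM against 42.5, 33.9, 21 and 39.5 CPM and Surf4 94, 87.6, 81.6 and 98.4 CPM against 73.9, 65.7, 74.3 and 52.1 CPM. Their groups did not overlap, whereas those of Uso1 did (45.9, 41.1, 32 and 29.9 CPM against 32.7, 27.6, 26.2 and 17 CPM), although each pair was higher.

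The 4 lower genes were 3 p24 genes and Cope. Tmed10 stood at 224, 203, 213 and 193 CPM against 289, 273, 312 and 299.8 CPM and did not overlap (-0.57 ± 0.12, adjusted p = 0.0011 in edgeR). Cope stood at 84.2, 83.8, 104 and 102 CPM against 123, 124, 124 and 107 CPM (-0.44 ± 0.13, adjusted p = 0.012 in edgeR). Tmed5 and Tmed2 had -0.37 ± 0.13 and -0.34 ± 0.12 (edgeR, adjusted p = 0.033 and 0.034). Without TMM, which moved the median of all genes by 0.20, 16 were higher and Tmed10 alone was lower, beside 32% and 15.2% of all genes. Sec24d, Sec31a, Surf4, Tmed7, Copa and Uso1 were called in both genotypes, 66.7% of the WT and 42.9% of the Xbp1-KO calls, against 85.7% and 74.5% over all genes. DESeq2 called 6 of the 39 genes in Xbp1-KO mice.

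The levels were also followed over 15 endothelial clusters, each called by its 2 leading genes, namely the 14 clusters of the 3 classes and the unnamed one led by Col13a1 and Hbegf. This is a description with no test, over sums of at least 10 cells (4 to 8 per cluster). WT and Xbp1-KO sums of both tissues and libraries entered the same mean and SD. The cluster values are therefore not WT levels, and their SD does not separate genotype, tissue, sex and library. Of the 40 genes, 15 had their highest mean in the Marco/Clec1b lymphatic medullary-like cluster, 8 in the Ptx3/Mrc1 lymphatic cluster, 4 in the Fabp4/Aqp7 capillary-like cluster and 4 in the high endothelial-like cluster, which were Tmed3, Tmed9, Kdelr3 and Cope. For none of the 40 did every sum of the highest cluster lie above every sum of the next. Tmed3 had 266 ± 141 CPM (mean ± SD of 8 sums) in the high endothelial-like cluster and 120 ± 37.3 in the next, a lymphatic floor-like cluster led by Ccl20 and Coch. Sec24d ranged from 48.8 ± 9.95 CPM in the Marco/Clec1b cluster to 8.84 ± 5.27 in the arterial-like cluster, and Uso1 from 57.8 ± 13.9 CPM in the Marco/Clec1b cluster to 10.7 ± 8.34 in the venous-like cluster. Sec31a ranged from 139 ± 15.1 CPM in the Marco/Clec1b cluster to 47.2 ± 16.7 in the Fabp4/Aqp7 capillary-like cluster.

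Some genes ran against that order. Tmed10 was highest in the arterial-like cluster at 365 ± 55.1 CPM, Arf1 and Tmed5 in the Fabp4/Aqp7 capillary-like cluster at 339 ± 110.3 and 223 ± 63.3 CPM, and Kdelr2 in the tip-like cluster at 138 ± 59.9 CPM. The lowest means fell most often in the venous-like (8 genes), Fabp4/Aqp7 capillary-like (7) and Penk/Col13a1 capillary-like (6) clusters. The sum of the 40 genes was 3867 ± 249 CPM in the Marco/Clec1b cluster, 3817 ± 114 in the Ptx3/Mrc1 cluster and 3574 ± 566 in the high endothelial-like cluster, and 2858 ± 273 in the venous-like cluster, a ratio of 1.35 from highest to lowest. Median UMIs per cell, relative to the library's own median, ran from 0.503 in the Fabp4/Aqp7 capillary-like to 1.63 in the Marco/Clec1b and 1.94 in the high endothelial-like cluster, and the part of depth in the order was not tested.

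**Figure D3:**
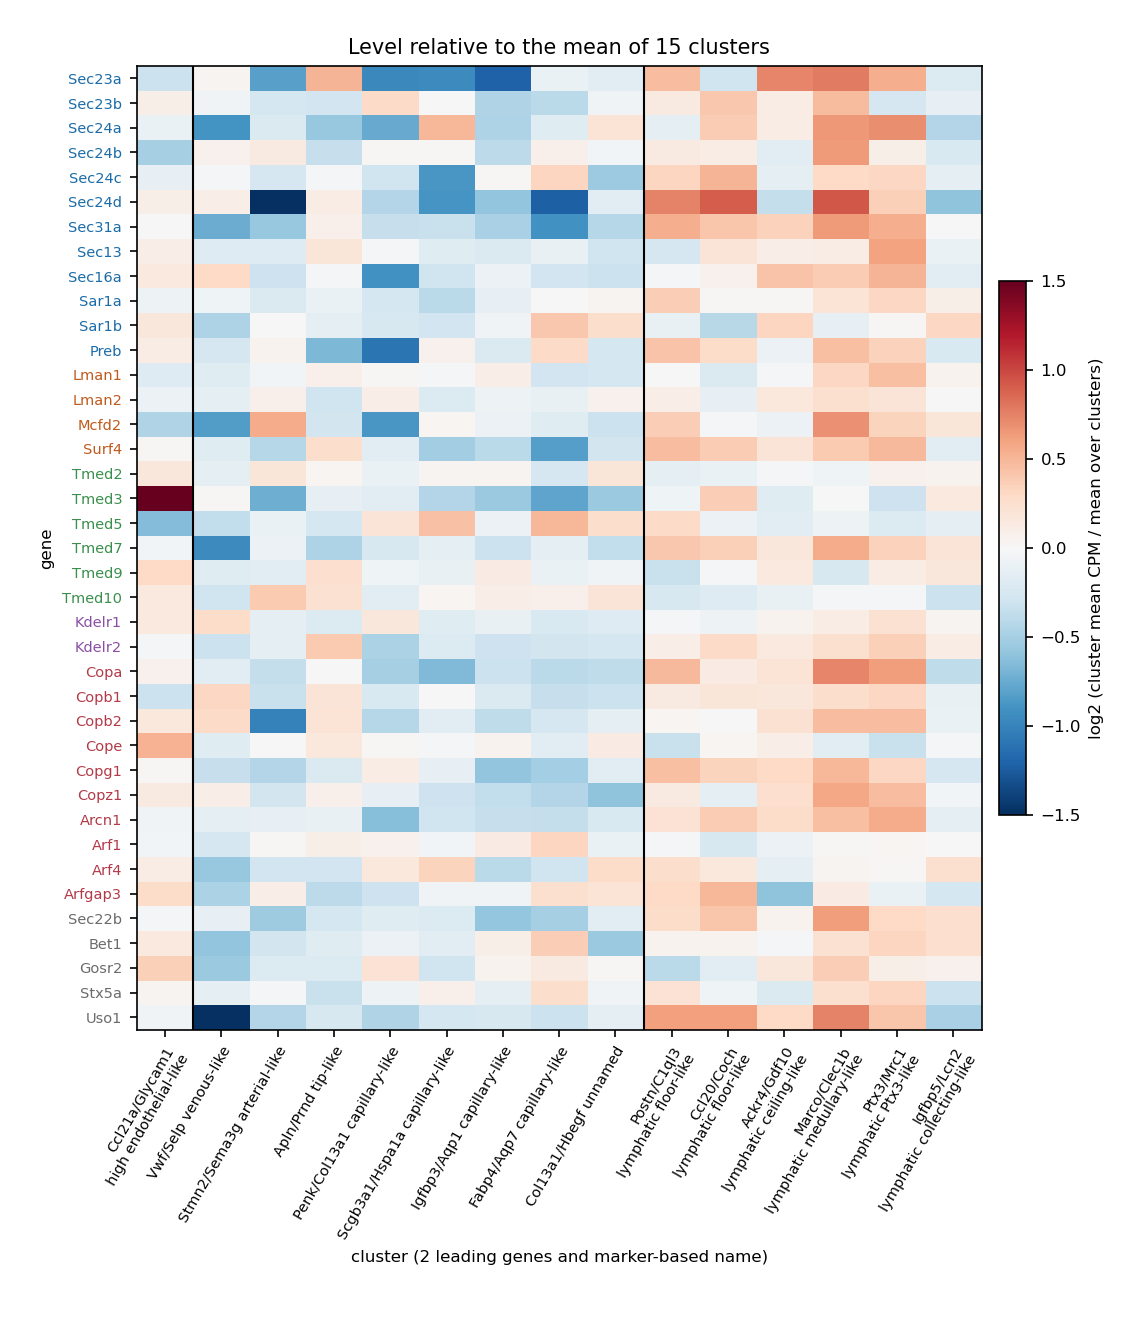
Mean TMM-scaled CPM of each gene (rows, coloured by role) in 15 endothelial clusters (columns), as log2 of the ratio to the mean over clusters. Each mean is over sums of WT and Xbp1-KO pools. Kdelr3 is not drawn because it is at 0 in 1 cluster. Tmed3 is darkest red in the high endothelial-like column, and most COPII and COPI genes are red in the Marco/Clec1b and Ptx3/Mrc1 lymphatic columns.

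Peripheral and mesenteric nodes of WT mice were compared within each class. None of the 38, 39 and 39 genes tested in high endothelial-like, other blood endothelial and lymphatic cells was called by edgeR without a library block, nor by DESeq2, beside 0.144% of 6254 genes in high endothelial-like cells (0.0799% higher and 0.064% lower in peripheral pools). The background was 0.107% of 9309 genes in other blood endothelial cells (0.0645% and 0.043%) and 0.918% of 10670 genes in lymphatic cells (0.394% and 0.525%). At an unadjusted p under 0.05 they were 2 of 38, 0 of 39 and 1 of 39, against 7.28%, 4.05% and 13.36% of all genes. With the library block none was called in the first 2 classes and 1 in the third, beside 0.688%, 0.698% and 5.15% of all genes.

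In the high endothelial-like cells 28 of 38 genes lay below 0, that is lower in peripheral pools, with a median of -0.38 against -0.07 over all genes. Sec24a and Kdelr3 were not tested. Surf4, at 44.7 ± 16.8 CPM in the 2 peripheral and 129 ± 17.4 CPM in the 2 mesenteric pools, had the smallest p (-1.53 ± 0.47, adjusted p = 0.33 in edgeR). Sec22b, Stx5a, Bet1 and Tmed3 had -1.47 ± 0.57, -1.05 ± 0.54, -1.01 ± 0.53 and -0.85 ± 0.45 (edgeR, adjusted p = 0.56 to 0.73). Stx5a, the syntaxin of this SNARE set, had 56.6, 21.9, 60.7 and 106 CPM. The 5 SNARE and tether genes all lay below 0, with Gosr2 at -0.01 ± 0.46 and Uso1 at -0.12 ± 0.59. Without TMM Gosr2 lay above 0, at 0.03. The peripheral values rest on few molecules, with 3 and 2 UMIs of Sec22b and 6 and 3 of Surf4 in the 2 peripheral WT pools.

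In lymphatic cells Cope was lower in peripheral pools, at 104, 84.2, 152 and 133 CPM, and its groups did not overlap. The log2 fold change of -0.64 ± 0.16 missed the threshold in edgeR (adjusted p = 0.088) and passed it with the library as a block (-0.63, adjusted p = 0.0070). Copa and Sec31a, whose pool values are given above, had 0.34 ± 0.16 and 0.28 ± 0.16 and were higher in both peripheral pools. Sec24a had 27.3, 19.8, 17.6 and 10.7 CPM (0.57 ± 0.29) and Sar1b 43, 45.1, 48.6 and 81.7 CPM (-0.44 ± 0.25), and none of the 4 was called. In other blood endothelial cells the median was 0.03, and the smallest p belonged to Preb, with 13.3, 26.7, 25.5 and 32.5 CPM (-0.68 ± 0.34, adjusted p = 1 in edgeR). Next came Bet1 (-0.48 ± 0.26) and 3 cargo receptors. Mcfd2 had 41.4, 49.6, 36.8 and 29.5 CPM, Lman2 99, 107, 81.7 and 91.5 CPM and Lman1 126, 137, 112 and 107 CPM, with 0.38 ± 0.27, 0.24 ± 0.20 and 0.24 ± 0.21. Both peripheral values of these 3 genes lay above both mesenteric ones, whereas those of Surf4, the remaining cargo receptor, overlapped with them. The 3 genes were picked by p, and the share of all genes without overlap is not given here.

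The loss of Xbp1 was compared in each class over both tissues. No gene of the list was called in high endothelial-like, other blood endothelial or lymphatic cells, over both tissues or in 1 tissue, with or without the library block, and DESeq2 called none over both tissues. Without the block the background was 0.0% of genes over both tissues and in peripheral pools of each class. It was 0.0%, 0.0107% and 0.0375% in mesenteric high endothelial-like, other blood endothelial and lymphatic cells. With the block it was 0.0%, 0.15% and 0.918% over both tissues in these 3 classes. In their mesenteric pools it was then 0.064%, 0.58% and 1.08%, and in their peripheral pools 0.0%, 0.0107% and 0.00937%. At an unadjusted p under 0.05 there were 2 of 38 genes in high endothelial-like cells, both lower (3.17% of all 6254 genes), 0 of 39 in other blood endothelial cells (2.48% of 9309) and 3 of 39 in lymphatic cells, all 3 lower (6.05% of 10670).

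In the high endothelial-like cells 26 of 38 genes lay below 0 and the median was -0.17, against 0.02 over all genes. By role the medians were -0.14 for COPII genes, -0.01 for cargo receptors, -0.19 for p24 genes, -0.14 for KDEL receptors, -0.11 for COPI genes and -0.19 for SNAREs and the tether, all 5 of which lay below 0. In mesenteric pools 32 of 38 lay below 0 (median -0.19), and in peripheral pools 22 of 38 (median -0.08). No median or count over all genes is given here by tissue, so these counts have no background to be read against. Without TMM the median over both tissues was -0.23 with 27 of 38 below 0, against -0.04 over all genes. Of the 37 genes tested in each library alone, 14 had opposite signs in the 2 libraries.

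Lman2, the lectin of the early secretory pathway, had the smallest p. It had 113, 131, 106 and 102 CPM (WT) against 57.6, 85.4, 65.8 and 84.5 CPM (Xbp1-KO) in the high endothelial-like pools, which did not overlap. The log2 fold change was -0.68 ± 0.27 (95% interval -1.23 to -0.12; edgeR, adjusted p = 0.999), -0.44 in library 2 alone and -0.81 in library 1 alone. Tmed10 had 358, 372, 369 and 346 CPM (WT) against 295, 183, 296 and 261 CPM (Xbp1-KO) in the pools. The groups did not overlap and the lowest value was the 13-cell peripheral pool of library 2 (-0.45 ± 0.23, interval -0.93 to 0.02). Its fold change was -0.71 in library 2 alone and -0.28 in library 1 alone.

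Copa had 160.3, 109, 119 and 113 CPM (WT) against 97.2, 48.8, 96.2 and 88.3 CPM (Xbp1-KO) in the high endothelial-like pools, again without overlap (-0.53 ± 0.26, interval -1.07 to 0.01). Copb2, which joins Copa in the same subcomplex of the coat, lay above 0, at 66, 43.7, 76.7 and 81.3 CPM (WT) against 112, 109.8, 84.1 and 84.5 CPM (Xbp1-KO), without overlap (0.54 ± 0.27, interval -0.03 to 1.11). Sec16a stood at 37.7, 76.5, 37.6 and 32.1 CPM (WT) against 21.6, 12.2, 32.9 and 31.1 CPM (Xbp1-KO), with overlap (-0.83 ± 0.38, interval -1.63 to -0.03). It had -1.32 in library 2 alone and -0.48 in library 1 alone, and the 2 Xbp1-KO peripheral values come from 6 and 1 UMIs. The edgeR adjusted p of these genes was 0.999 each.

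The 13 genes called higher in WT high endothelial-like cells were called on the same WT pools that enter this comparison, so their values are given as a description. They lay between -0.67 (Sec24d) and 0.44 (Surf4), and Copg1 (0.19 ± 0.35) was the 1 other gene above 0. Tmed3 had 104, 361, 282 and 529 CPM (WT) against 198, 159, 281 and 213 CPM (Xbp1-KO) in the pools, means of 319 ± 177 and 213 ± 51.2 CPM (SD, n = 4), and overlapped (-0.52 ± 0.31, interval -1.18 to 0.14). The libraries went opposite ways for Tmed3, with -1.24 in library 2 alone and 0.48 in library 1 alone. The Xist pools were WT in library 2 and Xbp1-KO in library 1, so within a library genotype and sex cannot be told apart. The Xist pools had 361 and 198 CPM in peripheral and 529 and 281 CPM in mesenteric nodes. The Ddx3y pools had 104 and 159 CPM and 282 and 213 CPM. With the library as a block and a sex term Tmed3 had -0.67 in mesenteric (edgeR, adjusted p = 0.12) and -0.25 in peripheral pools. Sec24d stood at 18, 12.2, 24.4 and 27.4 CPM in Xbp1-KO pools (-0.67 ± 0.42, interval -1.55 to 0.21), where the 2 peripheral values come from 5 and 1 UMIs. Sec31a had -0.04 ± 0.27 and Cope -0.26 ± 0.23, and Surf4 had 0.44 ± 0.30, made up of 1.19 ± 0.52 in peripheral and -0.31 ± 0.29 in mesenteric pools. The test of that tissue difference gave -1.49 ± 0.60 (edgeR, unadjusted p = 0.021, adjusted p = 1).

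Taken by tissue, the smallest p in peripheral high endothelial-like pools belonged to Surf4, Sec16a, Sar1a, Copb2 and Lman2. Sar1a had 79.2, 36.6, 107 and 109 CPM in Xbp1-KO pools (-0.96 ± 0.44 in peripheral nodes), and Copb2 had 1.01 ± 0.46 there. In mesenteric pools they belonged to Sec23b, Tmed3, Lman2, Mcfd2 and Lman1. Sec23b had 36, 0, 25.6 and 21.1 CPM in Xbp1-KO pools, and the mesenteric difference was -1.02 ± 0.42. Lman1 had 84.9, 98.3, 184 and 102 CPM (WT) against 79.2, 97.6, 122 and 90.8 CPM (Xbp1-KO), and Mcfd2 9.43, 32.8, 37.6 and 47.3 CPM against 46.8, 36.6, 21.9 and 33.6 CPM. The lectin Lman1 and its partner had -0.45 ± 0.30 and -0.61 ± 0.37 in mesenteric nodes, and the partner lay above 0 in peripheral nodes (1.12 ± 0.77). Arfgap3 had 9.43, 10.9, 28.9 and 34 CPM against 21.6, 73.2, 25.6 and 18.6 CPM, with 1.78 ± 1.02 in peripheral and -0.51 ± 0.43 in mesenteric nodes. Its peripheral values come from 1 and 1 UMIs (WT) and 6 and 6 UMIs (Xbp1-KO). Those of Mcfd2 come from 1 and 3 UMIs (WT) and 13 and 3 UMIs (Xbp1-KO). None of the differences within a tissue passed the test (edgeR, adjusted p of 0.999 or more).

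**Figure D4:**
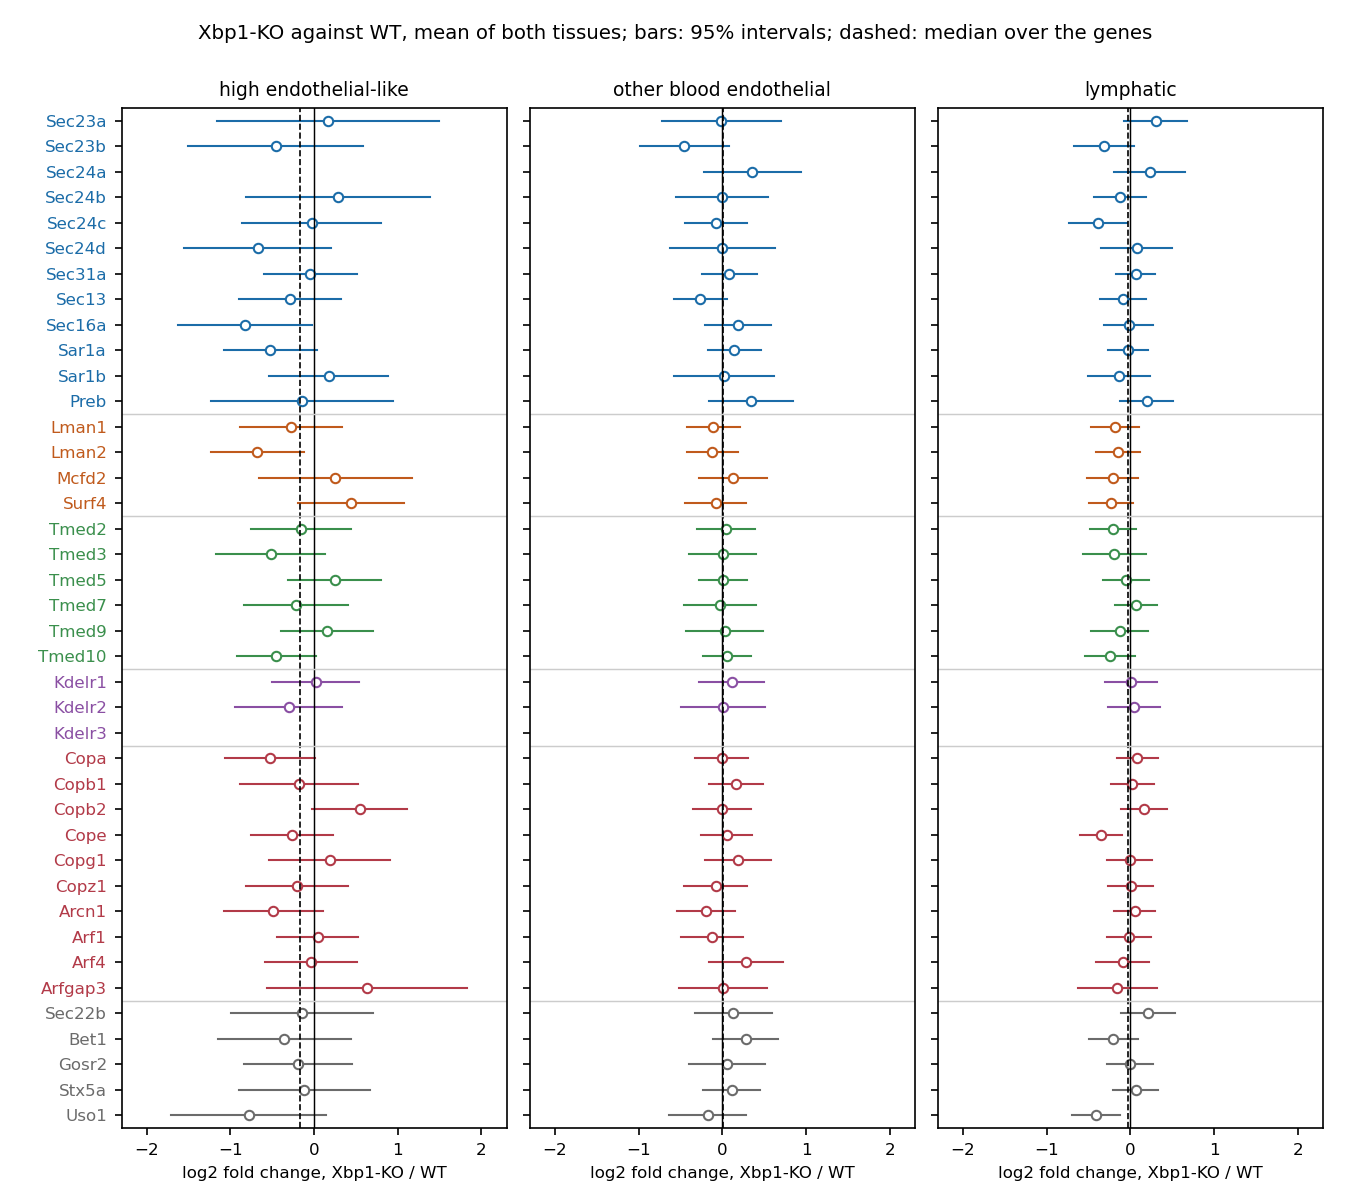
Log2 fold change of Xbp1-KO against WT over both tissues with 95% intervals (edgeR, TMM scaling) for each tested gene, ordered and coloured by role, in the 3 classes, with the median of the genes as a dashed line. The intervals are widest in the high endothelial-like panel, where the median is -0.17, and the medians of the other panels are 0.01 and -0.03 (-0.01 and 0.00 without TMM). Kdelr3 was not tested, nor was Sec24a in the high endothelial-like cells.

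In the other classes the values were closer to 0. The median of the 39 genes was 0.01 in other blood endothelial cells, where 24 lay above 0, and the 5 genes with the smallest p were Sec23b (-0.45 ± 0.25), Sec13 (-0.26 ± 0.15), Bet1 (0.28 ± 0.18), Preb (0.34 ± 0.23) and Arf4 (0.28 ± 0.21). Sec13 had 57.6, 64.9, 59.4 and 58 CPM (WT) against 43.8, 45.6, 55 and 55.6 CPM (Xbp1-KO) in the pools without overlap. Preb had -0.01 in library 2 alone. In lymphatic cells the median was -0.03 with 24 of 39 below 0. The 2 libraries taken alone had opposite signs for 24 of the 39 genes in other blood endothelial and 16 of 39 in lymphatic cells. The side of 0 depends on scaling in both classes, since without TMM 17 of the 39 genes lay above 0 in the blood class and 20 in the lymphatic class. Uso1 had 52.3, 52.3, 47.8 and 36.5 CPM (WT) against 45.9, 41.1, 32 and 29.9 CPM (Xbp1-KO) in the lymphatic pools, lower in 4 of 4 pairs with overlapping groups (-0.41 ± 0.13, adjusted p = 0.62 in edgeR). Cope, at 104, 84.2, 152 and 133 CPM (WT) against 84.2, 83.8, 104 and 102 CPM (Xbp1-KO), was lower in 4 of 4 pairs (-0.35 ± 0.12, adjusted p = 0.62 in edgeR), and Sec24c, whose groups did not overlap, had -0.39 ± 0.16, with -0.70 in library 2 alone and -0.12 in library 1 alone. All 4 cargo receptors lay below 0 in the lymphatic cells, between -0.24 and -0.15.

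The pool values behind these small differences were uneven. In other blood endothelial cells Sec23b had 34.4, 21, 27 and 20.3 CPM (WT) against 21.6, 12.7, 26.2 and 18 CPM (Xbp1-KO), and Bet1 27.4, 36.3, 40.1 and 45.8 CPM against 41.2, 50.9, 36.7 and 46.1 CPM. Preb had 13.3, 26.7, 25.5 and 32.5 CPM against 27.5, 25.4, 26.2 and 33.5 CPM and Arf4 135, 202, 123 and 152 CPM against 147, 223, 137 and 223 CPM. All 4 genes overlapped between genotypes. Within 1 tissue, Bet1 (0.59 ± 0.27) had the smallest p in peripheral and Sec16a (0.59 ± 0.24) in mesenteric pools. Sec16a had 29.5, 24.8, 25.2 and 21.4 CPM against 24.2, 23.3, 33.2 and 38 CPM, so that both mesenteric Xbp1-KO values lay above both WT ones. Copg1 had 0.37 ± 0.26 in peripheral pools, and Uso1 and Stx5a had -0.51 ± 0.29 and 0.29 ± 0.21 in mesenteric ones, with edgeR adjusted p of 0.999 or more.

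In lymphatic pools Surf4 had 112, 101, 115 and 86 CPM (WT) against 94, 87.6, 81.6 and 98.4 CPM (Xbp1-KO), and Sec23b 34.4, 24.1, 30.2 and 30.1 CPM against 27.4, 24.1, 18.6 and 26.1 CPM. Both overlapped (-0.24 ± 0.12 and -0.32 ± 0.17). Sec24c had 48, 51.7, 44.3 and 53.7 CPM against 42.4, 42.3, 43.4 and 25 CPM. In peripheral nodes Tmed10, Surf4, Tmed2 and Lman2 followed Uso1 by p, with -0.30 ± 0.19, -0.25 ± 0.16, -0.24 ± 0.17 and -0.23 ± 0.16, and 31 of 39 genes lay below 0 there, with a median of -0.10 against 0.00 over all genes. Sums thinned to the smallest turned the sign of Uso1 (0.059) and Surf4 (0.48) in these pools. In mesenteric nodes Cope had -0.51 ± 0.17, Uso1 -0.56 ± 0.21, Sec24c -0.55 ± 0.26, Sec24a 0.55 ± 0.33 and Copb2 0.32 ± 0.19. The WT mesenteric pool of library 2 held 64 lymphatic cells, the fewest of the 8.

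Whether the effect of Xbp1 loss differed between high endothelial-like and other blood endothelial cells was tested as 1 difference of differences over 8411 genes. None of the 39 genes tested was called by edgeR or DESeq2, beside 0.0% of all genes, and 3 had an unadjusted p under 0.05, beside 3.16%. The median was -0.21 against 0.02 over all genes, and 30 of 39 lay below 0, that is lower in high endothelial-like relative to other blood endothelial Xbp1-KO cells. Tmed10, Sec16a and Copa had -0.47 ± 0.18, -0.87 ± 0.34 and -0.51 ± 0.24 (edgeR, adjusted p = 1 each). Sec16a had -1.29 in library 2 alone and -0.59 in library 1 alone. This difference shares the high endothelial-like sums with the comparison of genotypes above and is not a second observation of it.

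Summed over each role, the WT high endothelial-like pools had 594 ± 50.7 CPM of COPII genes (mean ± SD, n = 4) and the Xbp1-KO pools 502 ± 94 CPM. For cargo receptors the sums were 349 ± 91 and 304 ± 16.7 CPM, for p24 genes 1200.4 ± 304 and 995 ± 78.7, for KDEL receptors 272 ± 73.9 and 252 ± 68.3, for COPI genes 1141 ± 68 and 1081 ± 70.3, and for SNAREs and the tether 270.2 ± 73.5 and 224 ± 54.4. The ranges of WT and Xbp1-KO pools overlapped in all 6 roles. The p24 sum had the largest SD among WT pools, from 829.7 to 1559.5 CPM, of which Tmed3 made up 104 to 529. All 40 genes together came to 3827 ± 552 CPM (WT) and 3359 ± 320 CPM (Xbp1-KO) in high endothelial-like pools. The other blood endothelial cells had 2938 ± 181 and 2965 ± 213 CPM, and the lymphatic cells 3252 ± 128 and 3091 ± 160.0 CPM. A sum is led by the genes with most UMIs, and no test was run on it.

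**Figure D5:**
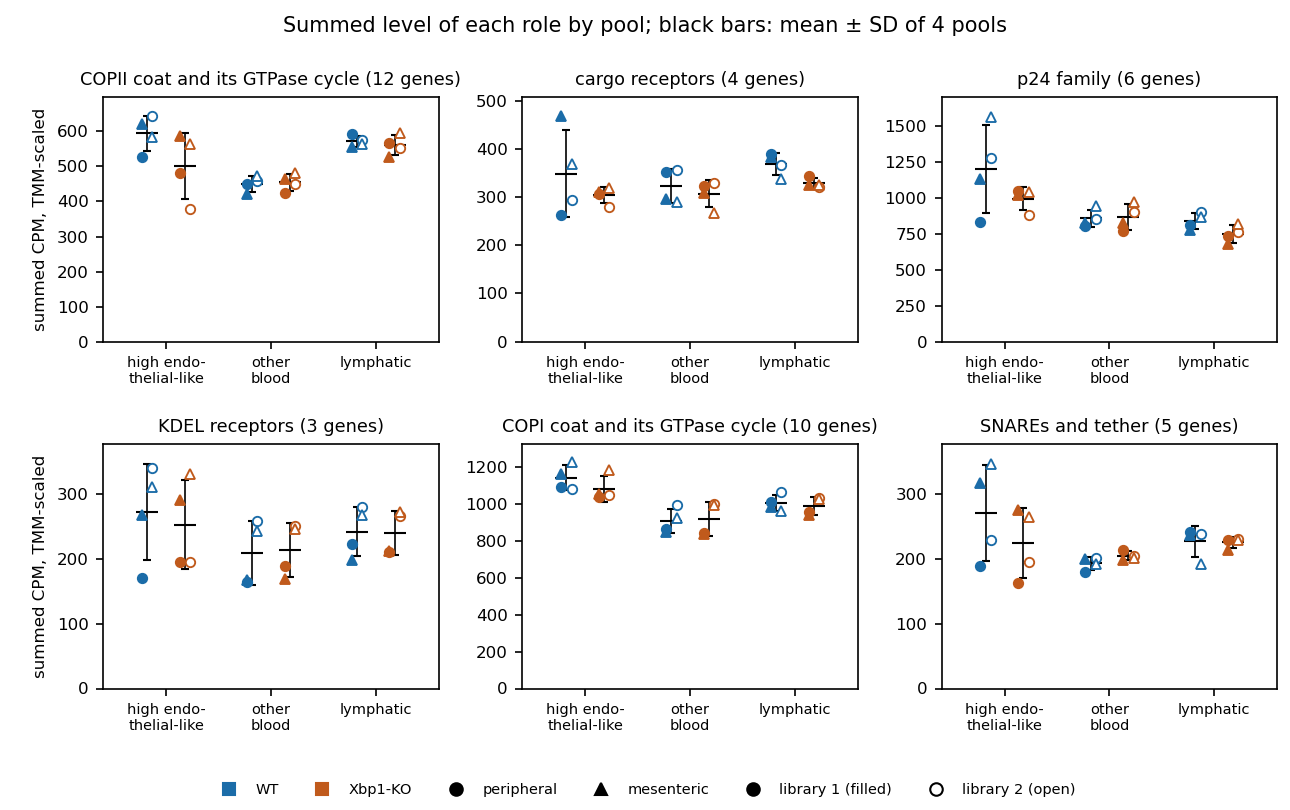
Summed TMM-scaled CPM of the genes of each role in each pool (circles peripheral, triangles mesenteric; filled library 1, open library 2; blue WT, orange Xbp1-KO) for the 3 classes, with black bars for mean ± SD of 4 pools. WT and Xbp1-KO points overlap in all 6 panels for the high endothelial-like cells, whose WT points show the widest spread in the p24 panel.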

How the data were processed

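The deposited matrices hold UMI counts per gene, hashtag and cell, made by the authors with Cell Ranger on mm10. The submitters' processing notes give version 6.1 and the file headers 6.0.1, and the labels name both the 3′ v2 and the 3′ v3 chemistry. Of 32285 gene identifiers, 32158 (99.6%) were found in GENCODE M21.

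Hashtags were assigned with HTODemux (Seurat 5.3.0, quantile 0.99). Cells with more than 1 tag (685 and 130 in the 2 libraries) or none (238 and 83) were left out. Scrublet marked 65 and 4 more cells, which were also left out; it marked 25.5% and 4.62% of the cells with more than 1 tag. Cells needed 500 genes and at most 10% mitochondrial UMIs. Clustering (scanpy 1.11.5, 1999 variable genes, 30 components, 15 neighbours, Leiden resolution 1) left out the 40 genes, Xbp1, Creb3l1, Creb3l2 and sex-linked transcripts. The 55 further ER-Golgi traffic genes were left out too. All these removals took the variable genes only from 2000 to 1999. Clusters were named from marker lists.

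UMI counts were summed per library, hashtag and class and tested with edgeR 4.0.16 (R 4.3.3; quasi-likelihood, TMM, filterByExpr, Benjamini-Hochberg over all genes tested). Comparisons of classes had the pool as a block. Comparisons of genotype and tissue had 1 mean per group without a block and 1 shared spread. Alternatives were DESeq2 1.42.0, no filter, another block, thinned sums, leaving out each library, another hashtag rule and, added after seeing the data, scaling by UMI totals and adding the unnamed cluster. The scripts were tested on simulated data. The 4 pools of a library were made and sequenced as 1 sample, per the labels, so the library pairs them as a batch. Their deviations from the group means correlated at 0.193 to 0.369 between the 2 tissues of 1 genotype and at 0.021 to 0.256 between genotypes.

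The 40 genes and all lists were chosen with earlier results of these data known. Pool values are given for the called genes, at most 12 per comparison by size, or where fewer than 3 were called for those among the 5 smallest p with at least 40 UMIs. Sar1a and Arf4 in the first comparison fall outside this rule and were added after their values were seen. Promoter sequence is from RefSeq, GRCm38.p6. Intervals cover counting error and the spread between pools only.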

Additional observations from a re-analysis of the deposited data

Results flagged for a closer look

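The log2 ratio of Arcn1 between lymphatic and other blood endothelial cells was 0.13 in the Xbp1-KO mesenteric pool of library 1, against 0.67 to 0.74 in the other 3 Xbp1-KO pools. The gap to the nearest pool was 0.884 of the whole range, above Dixon's 95% critical value for 4 values. It was the 1 sample to stand apart in this way among 38 sets of 4 values examined. Chance gives about 1 in 20 such sets, so 1 among 38 is no more than chance gives. Arcn1 was called higher in that comparison (0.50 ± 0.14), and it kept its call without library 1 and lost it without library 2 (0.35, adjusted p = 0.24 in edgeR).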

How the results depend on the processing

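The counts of called genes in the comparisons of classes depended on the processing, and the cause was not tested. For high endothelial-like against other blood endothelial cells in WT pools (14 called), DESeq2 gave 4, the fit with no replicate block 9, thinned sums 2, scaling without TMM 4 and leaving out 1 library 2 to 3. In Xbp1-KO pools (5 called) DESeq2 gave 2, thinned sums 1, the unnamed cluster added to the other blood endothelial cells 8 and leaving out 1 library 1 to 4. For lymphatic cells the WT count of 9 became 5 with thinned sums, 18 without TMM and 1 to 10 without 1 library. The Xbp1-KO count of 14 became 6 with DESeq2 and 4 to 6 without 1 library. With the library as a block, alone or with a sex term, peripheral against mesenteric WT lymphatic cells had 1 call (Cope) in place of 0. The block changed no other call of the 40 genes in comparisons of tissue or genotype. The counts of genotype comparisons were 0 under each alternative run. Thinned sums turned the sign of 3 uncalled differences between genotypes, to -0.13 for Preb in other blood endothelial cells and, in peripheral lymphatic cells, to 0.059 for Uso1 and 0.48 for Surf4. The smallest high endothelial-like sums hold 13 and 14 cells.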

Other observations

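Kdelr3, the KDEL receptor with fewest UMIs in the endothelial classes, had 13 UMIs in the 122 cells of a stromal cluster led by Dcn and Acta2. This is 25.1 CPM of all UMIs with an exact 95% Poisson interval of 13.4 to 43, which covers counting error only, against 9.43 in the high endothelial-like cells, the highest of the 3 endothelial classes. The cluster was left out of the comparisons, and no test was made.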
